A study of Mus musculus with 12 samples.

Results

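The comparison described here is pneumonectomy against sham operation in the PDGFRa-GFP dim fibroblasts of the mouse lung. Its members were chosen by label alone: the 2 arrays titled dim PNX were set against the 2 titled dim SHAM, which makes 4 of the 12 arrays of the series. The animals of every group carried GFP as a reporter of Pdgfra, the gene of a PDGF receptor that marks lung fibroblasts. Lungs were taken 5 days after surgery and digested with dispase, GFP-positive cells were sorted into a dim and a bright gate, and cDNA from 2000 cells per sample was amplified over 25 cycles. The dim PNX group had a partial pneumonectomy. The dim PNX-dnFGFR group, which is printed beside it, had the same operation in animals that also express a dominant negative form of FGF receptor 2. The dim SHAM group had the surgical trauma without removal of lung. The sources used here do not give age, sex, strain, the promoter that drives the dominant negative receptor or the hour of harvest. Each replicate is labelled biological, and nothing says whether it came from 1 animal or from several, so p-values describe the spread between these arrays, which are few and limit the precision.

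Removal of part of a lung makes the remaining lobes grow, and new alveolar walls (septa) form in them. Interstitial fibroblasts take part in that growth: some become contractile, elastin-producing myofibroblasts, others hold lipid and feed the epithelium with growth factors, and fibroblasts around vessels and airways form the adventitia. Fibroblasts also answer injury with acute-phase proteins, protease inhibitors and chemokines. Most cells carry a circadian clock, in which the proteins Arntl (Bmal1) and Clock or Npas2 switch on the Per, Cry and Nr1d genes, whose products switch Arntl and its partners off again.

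Values are log2 signals per gene, 1 probe set standing for each gene, and 11073 of 17097 genes passed the filter on low values (log2 5.101 on at least 2 of the 12 arrays). The correlation across genes (Pearson's r, a description in which genes are no replicates) was 0.972 between the dim PNX arrays and 0.968 between the dim SHAM arrays. The dim gate held fibroblast transcripts at high and even levels. Tcf21, a transcription factor of lung fibroblasts, was at 10.65 and 10.80 on the dim PNX arrays and at 10.57 and 10.53 on the dim SHAM arrays. The collagen gene Col1a1 was at 11.95 and 11.93 after pneumonectomy and at 11.94 and 11.82 after sham surgery. Pdgfra itself was at 6.66 and 6.97 in dim PNX and at 7.13 and 6.93 in dim SHAM, so its groups overlapped (limma adjusted p = 0.64). Transcripts of other lung cells were present too. The surfactant gene Sftpc of type II epithelium was at 12.28 and 11.58 in dim PNX and 12.43 and 12.13 in dim SHAM, and Lyz2 of macrophages and type II cells was at 11.31 and 10.06 against 11.11 and 10.58. Haemoglobin Hba-a1 was at 6.30 and 12.02 in dim PNX and at 11.54 and 9.53 in dim SHAM, so it separated single arrays and not groups. The mesothelial gene Upk1b was at 10.22 and 4.52 against 10.66 and 10.67, which sets dim PNX replicate 2 apart for this gene. The median difference of the 9 tested mesothelial genes was on the other side, at 0.36, with 6 of them above 0. In bulk samples of this kind, fewer cells of a type and less RNA per cell cannot be told apart.

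Between dim PNX and dim SHAM, 5 genes differed at an adjusted p below 0.05 by limma's moderated test. Of the genes tested, 3 rose (0.0271%) and 2 fell (0.0181%). At an unadjusted p below 0.05 there were 780 higher genes (7.04%) and 566 lower genes (5.11%), and the median difference of all genes was 0.02. The counts of list members below are read against these shares. Without overlap between the 2 dim PNX and the 2 dim SHAM arrays were 2716 genes on the higher side (24.5%) and 2204 on the lower side (19.9%). Signals under the filter's value are near background, so a difference that starts from them has no exact size. With such values set to the filter's value, differences given below became 4.76 for Saa3, 1.13 for Ccn4, 1.18 for Tktl1, 1.03 for Wnt5a and -0.72 for H3c15.

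Serpina3n, a secreted inhibitor of serine proteases that belongs to the acute-phase response, rose most among them. Its signal was 11.11 and 11.52 in dim PNX, against 7.92 and 8.06 in dim SHAM. Both dim PNX arrays lay far above both dim SHAM arrays, and the difference was 3.33 (± 0.21, SE), or 10.1-fold, with a limma adjusted p of 0.00048. Its adjusted p was 0.0035 to 0.0093 when 1 of the 4 arrays was left out, and 0.092 with only these 4 arrays in the fit. Serpina3n belongs to a multigene family of near-identical neighbours, so its probes may also bind related transcripts.

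Mpzl2, an adhesion protein with immunoglobulin domains that is also known from epithelia, fell most. It was at 2.67 and 2.69 in dim PNX, against 6.72 and 7.99 in dim SHAM. The dim PNX arrays were at the bottom of the measured range, and the gene passed the filter only through the 2 dim SHAM arrays. The difference was -4.67 (± 0.39, limma adjusted p = 0.0029), and its other probe sets differed by -3.45 and -3.65. With all values below the filter set to the filter's value, the Mpzl2 difference was -2.25. This setting makes all arrays but the 2 dim SHAM arrays equal for Mpzl2 and removes their spread, so no p-value is given for it. Transcripts of blood granulocytes were also lower in dim PNX. Mpzl2 had been added to a neutrophil and mast cell list after earlier results of these data. Of the 7 other tested genes of that list, 7 were lower in dim PNX without overlap and 5 had an unadjusted p below 0.05. Their mean signal was 5.00 and 4.18 in dim PNX, against 5.83 and 6.83 in dim SHAM. Among them Il1r2, an interleukin 1 decoy receptor, and Mpo, myeloperoxidase, named after their values were seen, lay under the filter's value on all 4 arrays. S100a8 and S100a9 encode calprotectin, abundant in neutrophils. S100a8 was at 6.08 and 4.24 in dim PNX, against 7.67 and 8.54 in dim SHAM (difference -2.94, limma adjusted p = 0.24). S100a9 was at 7.10 and 4.30, against 8.39 and 9.26 (-3.12, limma adjusted p = 0.26). The receptor of granulocyte growth factor, Csf3r, was at 5.87 and 4.69 in dim PNX, against 7.05 and 6.98 in dim SHAM (-1.74). Mast cell carboxypeptidase, Cpa3, differed by -1.12. With 1 of the 4 arrays left out, 2 to 6 of the 7 had an unadjusted p below 0.05, with 2 without dim PNX replicate 2 and 2 without dim SHAM replicate 2. The limma adjusted p of Mpzl2 was 0.061 without dim PNX replicate 2. On the dim PNX-dnFGFR arrays the 7 genes averaged 5.98 and 5.25, which overlapped dim SHAM. Mpzl2 was at 2.63 and 2.50 on those arrays. The part of granulocytes in the Mpzl2 value was not tested.

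Spon2, a secreted matrix protein of the spondin family that recruits leukocytes, fell. The dim PNX arrays were at 7.32 and 7.44, and the dim SHAM arrays at 8.40 and 8.68. The groups did not overlap, the difference was -1.16 (± 0.15, limma adjusted p = 0.049), and a second probe set differed by -1.23. Leaving out any 1 of the 4 arrays gave a limma adjusted p of 0.099 to 0.22. The remaining changed genes, Per3 and Ciart, belong to the circadian clock and are described with it.

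**Figure D1:**
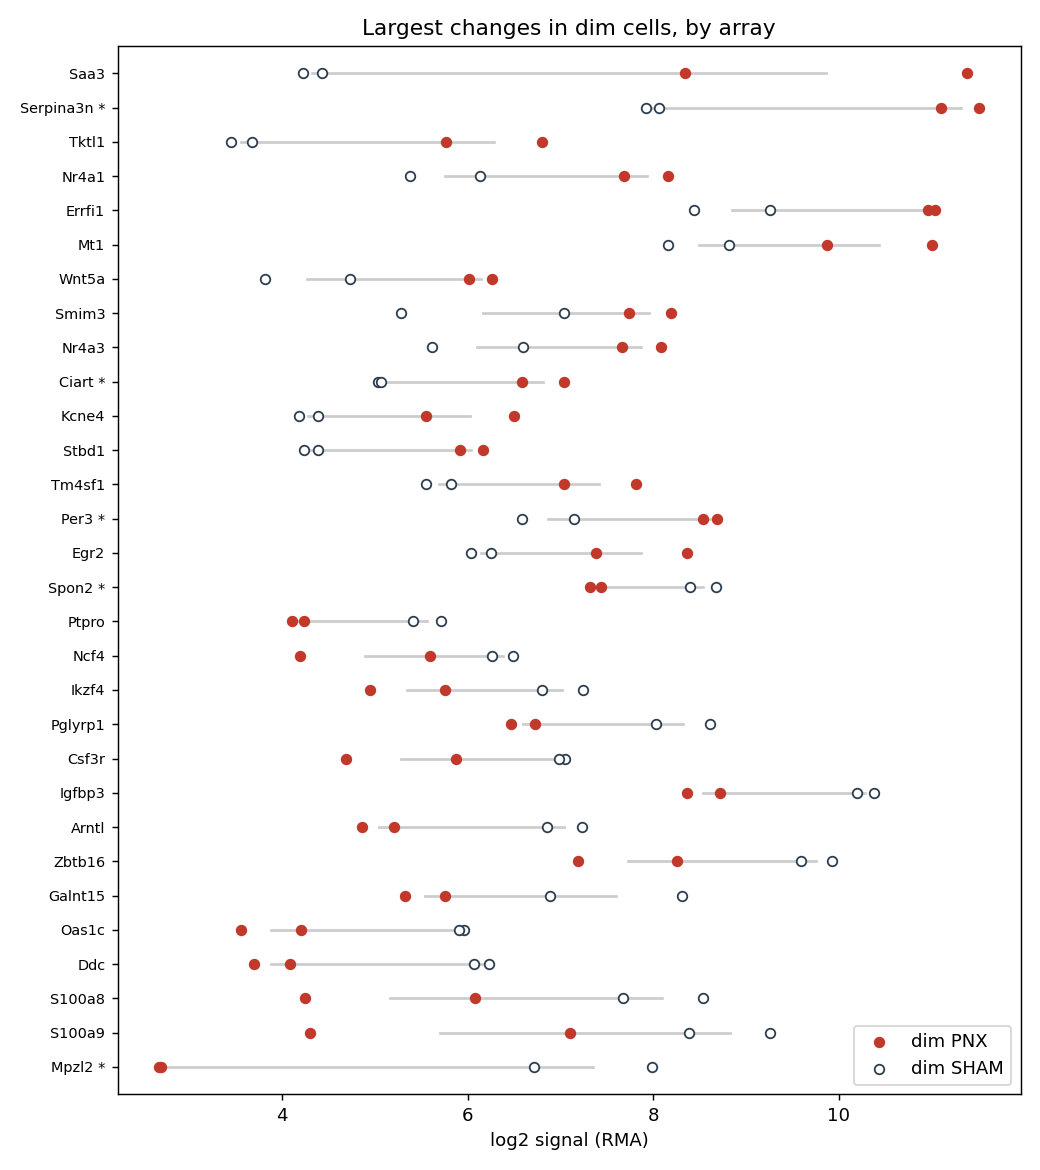
Log2 signal (x axis) of the 30 genes with the largest differences named by a fixed rule, 1 row per gene, with the 2 dim PNX arrays as filled red points, the 2 dim SHAM arrays as open points and a grey line between the group means. An asterisk marks the 5 genes past the adjusted threshold; in every row both filled points lie on one side of both open points, and the Saa3 pair after pneumonectomy spans 8.34 to 11.39.

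Clock genes were found on both sides. The hour of harvest is not given, and its part in the values of clock genes was not tested. Per3, a repressor arm gene of the clock, was at 8.69 and 8.54 in dim PNX, against 7.15 and 6.59 in dim SHAM. It rose by 1.74 (± 0.21, 3.34-fold, limma adjusted p = 0.049), and its other 4 probe sets differed by 0.82 to 1.07. Ciart, a repressor of Clock and Arntl activity, was at 7.04 and 6.59 in dim PNX, against 5.03 and 5.07 in dim SHAM, and rose by 1.76 (± 0.22, 3.39-fold, limma adjusted p = 0.049). Both dim PNX arrays exceeded both dim SHAM arrays for either gene. The calls were close to the threshold: without dim PNX replicate 1, dim PNX replicate 2 or dim SHAM replicate 2 the limma adjusted p of Per3 was 0.15, 0.20 and 0.11 in that order, and that of Ciart was 0.092 to 0.17 when any 1 of the 4 arrays was left out. Arntl, the activator, was at 4.86 and 5.21 in dim PNX, against 6.86 and 7.23 in dim SHAM. These groups did not overlap, with a difference of -2.01 (± 0.31), and the limma adjusted p was 0.083. The dim PNX values of Arntl lay close to the filter's value. A second probe set, whose mean was under that value in both groups, differed by -0.75.

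The promoters of these genes are printed because the known clock feeds back through short elements near the start site: the E-box bound by Arntl and Clock, the D-box bound by Dbp, Hlf, Tef and Nfil3, and the element bound by ROR and Nr1d proteins. Each sequence is the RefSeq window of 250 bases before to 50 bases after the gene start in GRCm38.p6, written 5′ to 3′ on the gene's strand, with the searched motif in capitals (both strands were searched).

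Ciart: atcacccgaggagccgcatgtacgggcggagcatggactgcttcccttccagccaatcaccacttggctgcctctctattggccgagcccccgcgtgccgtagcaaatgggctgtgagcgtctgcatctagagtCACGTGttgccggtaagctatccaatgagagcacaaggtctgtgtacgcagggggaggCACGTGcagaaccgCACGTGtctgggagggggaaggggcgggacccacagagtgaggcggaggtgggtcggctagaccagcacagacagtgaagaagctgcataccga
Per3: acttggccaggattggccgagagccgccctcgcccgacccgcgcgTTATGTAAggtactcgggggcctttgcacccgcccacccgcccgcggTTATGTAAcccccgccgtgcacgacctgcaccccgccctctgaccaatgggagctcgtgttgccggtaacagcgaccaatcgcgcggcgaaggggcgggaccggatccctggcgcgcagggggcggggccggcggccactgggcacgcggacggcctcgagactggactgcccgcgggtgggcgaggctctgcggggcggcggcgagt
Arntl: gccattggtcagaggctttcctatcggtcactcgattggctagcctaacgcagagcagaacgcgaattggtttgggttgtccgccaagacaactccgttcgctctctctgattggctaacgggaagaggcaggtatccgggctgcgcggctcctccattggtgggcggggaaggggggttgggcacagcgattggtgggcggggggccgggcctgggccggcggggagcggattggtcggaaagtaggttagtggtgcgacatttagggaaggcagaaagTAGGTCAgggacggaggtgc
Nfil3: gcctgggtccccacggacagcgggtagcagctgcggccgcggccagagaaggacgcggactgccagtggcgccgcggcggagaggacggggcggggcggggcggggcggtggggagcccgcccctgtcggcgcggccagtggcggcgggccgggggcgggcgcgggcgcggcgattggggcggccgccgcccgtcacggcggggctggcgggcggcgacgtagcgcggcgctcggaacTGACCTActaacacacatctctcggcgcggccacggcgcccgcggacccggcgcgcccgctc

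The Ciart window (chr3:95882179-95882478, minus strand) held the E-box CACGTG 3 times, beginning at positions -116, -58 and -44 from the gene start at 0. Of 32851 mouse promoter windows 7.15% held it. The Per3 window (chr4:151044616-151044915, minus strand) held the D-box TTANNTAA at -205 and -158, a motif in 6% of all windows. The second annotated start of Arntl (chr7:113207261-113207560, plus strand) had the ROR half-site NAGGTCA at 30, as 16.2% of all windows do in either orientation, and the window of its first annotated start held none. In Nfil3 (chr13:52980990-52981289, minus strand) it lay at -12 on the opposite strand. Among core clock genes with a window, E-boxes were found for 2 of 9 (Per1 and Ciart), the D-box for 1 of 9 and the ROR half-site for 4 of 9. Among clock output genes with a window these motifs were found for 2 of 8, 2 of 8 and 1 of 8 (Nfil3), in that order. Counted likewise over any window of a gene, 11.7%, 4.17% and 15.5% of 8919 tested genes held them, in the same order. These matches describe letters near the start site and no binding.

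Of 10 tested core clock genes, 5 were higher and 2 lower at an unadjusted p below 0.05, and their median difference was 0.39. Per1, a repressor that also answers glucocorticoids, was at 8.80 and 8.91 in dim PNX, against 7.89 and 6.91 in dim SHAM (difference 1.45, limma adjusted p = 0.19). Per2 was at 7.67 and 7.57, against 6.62 and 6.52 (1.05). Nr1d2, a repressor of Arntl, differed by 0.63. All 3 had their dim PNX arrays above their dim SHAM arrays. Npas2, which pairs with Arntl in place of Clock, was at 6.41 and 6.41 in dim PNX, against 7.07 and 7.48 in dim SHAM (-0.86). Clock differed by -0.29, Rora by 0.15 and Cry2 by -0.01, and none of these had an unadjusted p below 0.05. Cry1 was below the filter. With 1 of the 4 arrays left out, 3 or 4 core clock genes were higher and 1 or 2 lower at that level.

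Clock output genes carry the rhythm to the rest of the cell. Of 11 tested, 5 were higher and 1 lower at an unadjusted p below 0.05 (2 to 6 higher with 1 array left out, fewest without dim SHAM replicate 2), with a median of 0.68. Hlf, a D-box activator, was at 7.76 and 7.41 in dim PNX, against 6.72 and 6.23 in dim SHAM (1.11, limma adjusted p = 0.12). Its relatives Tef and Dbp, named after their values were seen, differed by 0.68 and 0.78. Nfil3, which represses through the same element, was at 5.36 and 5.40, against 6.30 and 6.58 (-1.06, limma adjusted p = 0.12). Wee1, a kinase that holds back mitosis and a known clock target, was at 6.33 and 6.25 in dim PNX, against 5.27 and 4.40 in dim SHAM (1.45). Bhlhe40, a repressor that competes for E-boxes, differed by 0.94.

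**Figure D2:**
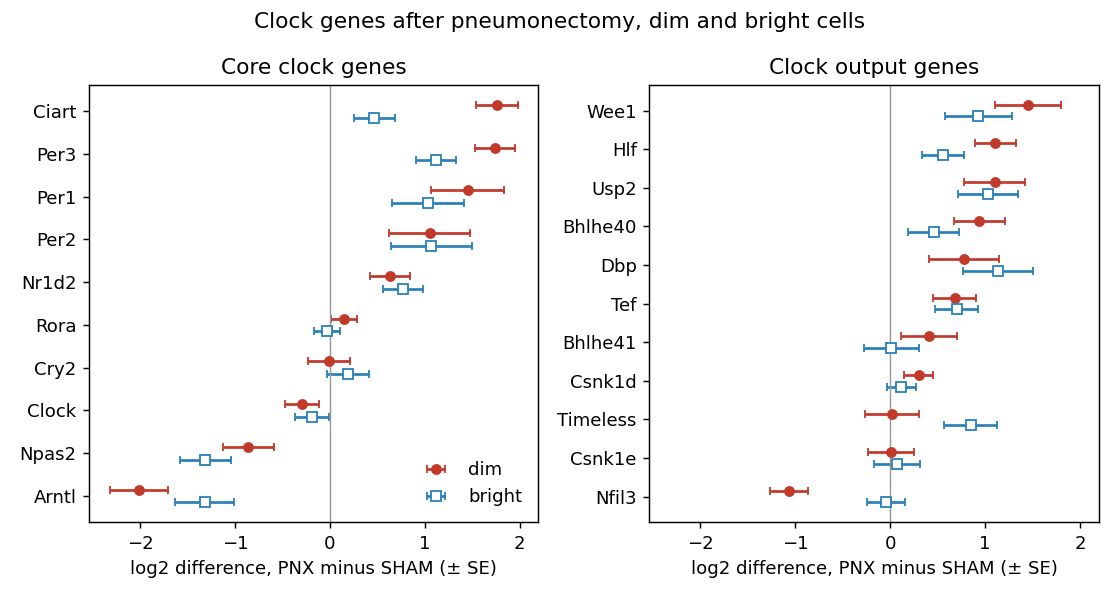
Log2 difference PNX minus SHAM (x axis, points with SE) of the tested core clock genes and clock output genes, in dim cells (filled red) and bright cells (open blue). Ciart, Per3, Per1 and Per2 lie right of 0 in dim cells at 1.05 to 1.76 and Arntl lies left at -2.01.

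The acute-phase list was led by Serpina3n and Saa3, and its median was 0.32. Of 14 tested members 3 were higher and 1 lower at an unadjusted p below 0.05. Saa3, a serum amyloid A made outside the liver, had the largest difference of all genes: 11.39 and 8.34 in dim PNX, against 4.43 and 4.22 in dim SHAM, where it lay under the filter's value. Both dim PNX arrays were far above dim SHAM but also far from each other, and the difference of 5.54 (± 0.97) had a limma adjusted p of 0.11. Osmr, a receptor subunit for oncostatin M, was at 9.85 and 10.15 in dim PNX, against 9.45 and 9.77 in dim SHAM (0.40). Il6ra, the interleukin 6 receptor, was at 9.98 and 10.03, against 10.54 and 10.60 (-0.56, limma adjusted p = 0.35).

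Complement proteins mark and lyse cells. Of 15 tested genes 4 were higher and 0 lower at an unadjusted p below 0.05, with a median of 0.36, and 2 to 6 were higher with 1 array left out (2 without dim PNX replicate 1 and 2 without dim SHAM replicate 2). C6, a component of the membrane attack complex, was at 9.45 and 9.71 in dim PNX, against 8.76 and 8.53 in dim SHAM (0.93). Cfb, of the alternative pathway, differed by 0.69, Cd55, which shields cells from complement, by 0.98, and Cfi, which cleaves complement fragments, by 1.03, although Cfi lay under the filter's value on all 4 arrays. None passed the adjusted threshold. Among inflammatory chemokines and cytokines 2 of 14 were higher and 1 lower, and 0 were higher without dim PNX replicate 2, without dim SHAM replicate 1 or without dim SHAM replicate 2. The eosinophil chemokine Ccl11 was at 3.85 and 5.95 in dim PNX, against 3.33 and 3.25 in dim SHAM (1.61), and the monocyte chemokine Ccl7 differed by 0.65. Interleukin 1 beta, Il1b, a product of myeloid cells, was at 5.96 and 5.33, against 6.81 and 7.11 (-1.31), the same side as the granulocyte transcripts, whose part in it was not tested. The interferon list held no gene at an unadjusted p below 0.05 among 15.

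Immediate early genes, which cells transcribe within minutes of a stimulus, included 10 of 24 that were higher in dim PNX and 0 that were lower at an unadjusted p below 0.05 (median 0.40). With 1 of the 4 arrays left out 5 to 8 were higher, fewest without dim PNX replicate 1. Nr4a1, an orphan nuclear receptor, was at 8.16 and 7.69 in dim PNX, against 5.38 and 6.13 in dim SHAM (2.17, limma adjusted p = 0.11). Its relative Nr4a3 was at 8.09 and 7.66, against 5.61 and 6.60 (1.77). Egr2, a zinc finger factor, was at 8.36 and 7.38, against 6.25 and 6.04 (1.73). The groups did not overlap for these 3. Egr1 differed by 0.96 and the AP-1 subunit Fosl2 by 0.98. The members Fos, Jun and Junb, named after their values were seen, were at 0.23, -0.16 and 0.26.

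Errfi1, which binds and blocks the EGF receptor and is induced by glucocorticoids among others, was at 11.04 and 10.96 in dim PNX, against 9.26 and 8.44 in dim SHAM (2.15 ± 0.32, limma adjusted p = 0.078). The glucocorticoid list had 5 of 16 members higher and 1 lower at an unadjusted p below 0.05, and 3 higher and 2 lower without dim PNX replicate 2. Metallothionein Mt1, a metal-binding protein, was at 9.88 and 11.01, against 8.82 and 8.16 (1.96). Zbtb16, a transcription factor strongly induced by glucocorticoids in many cells, stood on the other side, at 8.26 and 7.19 in dim PNX, against 9.93 and 9.59 in dim SHAM (-2.04). The members of the list were thus on both sides.

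Heat shock and endoplasmic reticulum chaperones fold proteins. Hsp90aa1, an inducible chaperone, was at 8.32 and 8.62 in dim PNX, against 7.64 and 7.61 in dim SHAM (0.85), Dnajb1, a co-chaperone, differed by 0.84 and the endoplasmic reticulum chaperone Calr by 0.46. With 3 of 22 members higher at an unadjusted p below 0.05 (5 without dim PNX replicate 1), the list was at 0.20 in the median. Of 28 subunits and factors of oxidative phosphorylation 7 were higher and 0 lower, with a median of 0.15, but with 1 array left out only 2 to 4 were higher (fewest without dim PNX replicate 2). Coq10b, a coenzyme Q binding protein of mitochondria, was at 10.12 and 9.98 in dim PNX, against 8.73 and 8.79 in dim SHAM (1.29 ± 0.20, limma adjusted p = 0.083). The respiratory chain subunits themselves differed less: Ndufa1 by 0.53, Cox5a by 0.48 and Ndufc1 by 0.37.

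Of 17 tested genes of cholesterol synthesis and transport 7 were higher and 0 lower at an unadjusted p below 0.05, 13 were higher without overlap, and the median difference was 0.52. No member passed the adjusted threshold. With 1 of the 4 arrays left out 4 to 11 were higher, 4 of them without dim PNX replicate 2 and 4 without dim SHAM replicate 1. Msmo1, which demethylates sterols, was at 6.59 and 6.82 in dim PNX, against 6.01 and 5.83 in dim SHAM (0.79, limma adjusted p = 0.12). Dhcr7, the enzyme of the last step to cholesterol, was at 8.49 and 8.46, against 7.87 and 7.86 (0.61). Its replicates nearly coincided within either group. Idi1, an isomerase of the isoprenoid branch, was at 6.07 and 6.45, against 5.25 and 5.17 (1.05), and Stard4, which carries cholesterol between membranes, differed by 0.99. Of 12 fatty acid synthesis genes, 2 were higher: Acaca, acetyl-CoA carboxylase, at 0.60 and Fasn, fatty acid synthase, at 0.47.

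Sterol genes are known to be switched on by SREBP together with NF-Y, which binds CCAAT boxes, so the windows of Idi1 and Msmo1 are shown with CCAAT, or ATTGG on the other strand, in capitals.

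Idi1: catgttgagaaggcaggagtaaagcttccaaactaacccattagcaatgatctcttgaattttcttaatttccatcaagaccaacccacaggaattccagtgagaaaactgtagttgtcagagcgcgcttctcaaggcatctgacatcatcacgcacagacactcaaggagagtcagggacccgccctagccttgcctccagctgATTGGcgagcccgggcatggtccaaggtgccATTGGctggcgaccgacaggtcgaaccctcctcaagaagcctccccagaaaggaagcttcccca
Msmo1: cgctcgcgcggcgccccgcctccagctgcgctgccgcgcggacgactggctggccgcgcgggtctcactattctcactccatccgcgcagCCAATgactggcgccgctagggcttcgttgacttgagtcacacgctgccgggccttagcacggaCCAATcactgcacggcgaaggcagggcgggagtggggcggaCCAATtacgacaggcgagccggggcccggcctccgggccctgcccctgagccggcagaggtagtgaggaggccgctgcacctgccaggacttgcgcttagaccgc

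The Idi1 window (chr13:8885356-8885655, plus strand) held the box at -45 and -14, and the Msmo1 window (chr8:64733529-64733828, minus strand) at -160, -96 and -55. All 13 of the 13 tested cholesterol genes with a window held a CCAAT box in at least 1 window, against 42.2% of 8919 tested genes and 37.4% of all windows. The box is short and common, and the match is no evidence of binding.

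Matricellular proteins signal to cells from the matrix without forming fibres. Of 23 matricellular genes 5 were higher and 2 lower at an unadjusted p below 0.05, with Spon2 the 1 past the adjusted threshold. With any 1 of the 4 arrays left out, 2 or 3 were higher. Ccn4, a Wnt-induced member of the CCN family, was at 6.41 and 6.05 in dim PNX, against 4.86 and 4.20 in dim SHAM (1.70). Ltbp2, a protein of elastic microfibrils, was at 6.87 and 6.09, against 4.54 and 5.18 (1.62). Ccn1, a growth factor and serum-induced matricellular protein, was at 11.87 and 11.56, against 10.31 and 11.41 (0.86). On the lower side was Tgfbi, an adhesion protein induced by TGF-beta, at 7.01 and 6.12, against 7.76 and 7.06 (-0.85). Cthrc1, a secreted marker of activated fibroblasts, was at the bottom of the range in dim cells, at 2.78 and 3.24 after pneumonectomy and at 2.65 and 2.55 after sham surgery (0.41, limma adjusted p = 0.52).

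Among 24 collagen genes 4 were higher and 1 lower, with a median of 0.08, and 0 to 2 were higher with any 1 of the 4 arrays left out. Col14a1, a collagen on the surface of fibrils, was at 8.28 and 7.69 in dim PNX, against 6.01 and 7.39 in dim SHAM (1.29), Col4a5 of basement membranes differed by 0.47 and Col6a2 by 0.41. Col1a1 differed by 0.06. Elastin, Eln, was at 11.84 and 11.68 in dim PNX, against 11.98 and 12.12 in dim SHAM (-0.29, limma adjusted p = 0.48). Mfap4, a microfibril protein, was at 12.08 and 12.08, against 11.59 and 11.38 (0.59, limma adjusted p = 0.22). The elastic fibre list as a whole had 2 of 13 higher, 1 lower and a median of -0.03.

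Proteases and their inhibitors remodel the matrix. Adamts1, a secreted protease that cuts proteoglycans, was at 7.32 and 7.47 in dim PNX, against 5.53 and 6.15 in dim SHAM (1.56 ± 0.27, limma adjusted p = 0.11). Timp1, an inhibitor of metalloproteinases, was at 7.75 and 8.59, against 7.12 and 6.50 (1.36). Mmp11, stromelysin 3, was at 9.51 and 9.70, against 10.34 and 10.36 (-0.75, limma adjusted p = 0.15). Plat, tissue plasminogen activator, differed by 0.78. The list of metalloproteinases and inhibitors had 2 of 16 higher and 1 lower, a share near that of all genes.

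Contractile genes mark myofibroblasts. Acta2, smooth muscle actin, was at 7.34 and 7.55 in dim PNX, against 6.89 and 6.53 in dim SHAM. The groups did not overlap, but the difference of 0.73 (± 0.45) had a limma adjusted p of 0.54. Myl9, myosin light chain, differed by 0.50 and was the 1 of 15 contractile genes at an unadjusted p below 0.05. The list's median was 0.23. Itga8, an integrin of alveolar fibroblasts and myofibroblasts, was at 10.34 and 10.60, against 10.69 and 10.95 (-0.35). The lipid storage list of lipofibroblasts had 1 of 18 members higher and 1 lower, with a median of 0.02. Plin2, the lipid droplet coat protein, was at 10.28 and 10.49 in dim PNX, against 10.44 and 10.47 in dim SHAM.

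The Id genes are known targets of BMP signalling. Id3, an inhibitor of basic helix-loop-helix factors, was at 9.73 and 9.28 in dim PNX, against 8.18 and 8.50 in dim SHAM (1.17 ± 0.18, limma adjusted p = 0.083). Id4 was at 7.49 and 7.64, against 6.14 and 6.22 (1.39, limma adjusted p = 0.11). Id1 was at 6.89 and 6.35, against 5.98 and 5.16 (1.05, limma adjusted p = 0.26). The dim PNX arrays were above the dim SHAM arrays for each. The receptor Acvr1 differed by 0.44, and its other probe sets by 0.04 and 0.17. Id3, Id4, Id1 and Acvr1 were the 4 of 19 BMP and activin genes higher at an unadjusted p below 0.05, and 0 were lower. Without dim PNX replicate 1 or without dim SHAM replicate 2 there were 2 higher. Id2 of the same family, named after its value was seen, differed by 0.06.

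FGF signals through its receptors and is held back by feedback inhibitors. Of 12 FGF receptors and ligands 0 were higher and 1 was lower at an unadjusted p below 0.05, the decoy receptor Fgfrl1, at 6.18 and 6.01 in dim PNX, against 6.76 and 6.97 in dim SHAM (-0.77). The probe set of Fgfr2 was at 8.18 and 7.09, against 8.45 and 7.69, and the groups overlapped. Spry2, a feedback inhibitor induced by FGF, was at 8.84 and 8.96, against 7.83 and 8.39 (0.80). With Egr1 it made 2 of 13 FGF feedback genes that were higher. The PDGF list had no gene at an unadjusted p below 0.05 among 4 tested. Wnt5a, a ligand of the non-canonical Wnt pathway, was at 6.01 and 6.26, against 3.81 and 4.73 (1.87 ± 0.34, limma adjusted p = 0.11), without overlap. The IGF binding proteins, which hold IGF in the matrix, went both ways. Igfbp3 was at 8.72 and 8.37 in dim PNX, against 10.38 and 10.20 in dim SHAM (-1.75). Igfbp6 was at 7.91 and 8.01, against 9.45 and 9.21 (-1.38, limma adjusted p = 0.086). Igfbp4 was at 9.64 and 9.23, against 8.28 and 8.50 (1.05). Igf1 itself was at 10.04 and 10.14, against 10.39 and 10.15 (-0.18). Of the niche factors, Kitl, the ligand of the receptor Kit, was at 9.55 and 9.49, against 8.67 and 8.70 (0.84). The chemokine Cxcl12 differed by 1.34, from a dim SHAM mean of 4.26 under the filter's value, and its other probe sets differed by 0.21 and 0.46. Among 19 genes of the TGF-beta list 3 were higher and 3 lower, and 1 was lower without dim PNX replicate 1, dim PNX replicate 2 or dim SHAM replicate 2.

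Further large differences did not belong to one programme. Tm4sf1, a membrane protein of the tetraspanin-like kind, was at 7.81 and 7.04 in dim PNX, against 5.55 and 5.82 in dim SHAM (1.74 ± 0.26, limma adjusted p = 0.078). Tktl1, a transketolase-like protein, was at 5.77 and 6.80, against 3.45 and 3.67 (2.72). Ddc, which decarboxylates DOPA to dopamine, was at 3.69 and 4.08, against 6.07 and 6.23 (-2.27 ± 0.39, limma adjusted p = 0.11). Both dim PNX values of Ddc lay under the filter's value, and with such values set to it the difference was -1.05. This setting makes low values equal and shrinks their spread, so no p-value is given for it. Each had groups without overlap. Pglyrp1, an antibacterial protein of granulocytes, was at 6.73 and 6.47, against 8.03 and 8.61 (-1.72), and Ncf4, a subunit of the phagocyte oxidase, differed by -1.49. Both are leukocyte genes, and the part of the granulocyte transcripts in them was not tested.

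Mitosis genes mark dividing cells. In that list 0 of 22 were higher and 2 were lower at an unadjusted p below 0.05, Birc5 (survivin) and Nusap1, a spindle protein. Birc5 was at 4.13 and 4.29 in dim PNX, against 5.40 and 5.14 in dim SHAM (-1.06, limma adjusted p = 0.12), close to or below the filter on all 4 arrays, and Nusap1 was below it on all 4. The list's median was -0.36, but 1 array decided it: without dim SHAM replicate 1 it was 0.05 with 1 gene lower, and without dim SHAM replicate 2 it was -0.79 with 9 genes lower. Mki67, the proliferation marker, was at 4.62 and 3.40, against 5.89 and 3.57, so the replicates differed more than the groups. Of 21 DNA replication genes 1 was higher and 0 lower (median -0.03). Histone genes, most of which are transcribed while DNA is copied, were lower in 4 of 8 tested at an unadjusted p below 0.05. H3c15 was at 4.68 and 4.36 in dim PNX, against 5.85 and 5.79 in dim SHAM (-1.30 ± 0.19, limma adjusted p = 0.078), and H1f4, a linker histone, differed by -0.65. Without dim PNX replicate 2 or without dim SHAM replicate 1, 2 histone genes were lower. The histone median was -0.53, but it moved with the same array as mitosis: -0.06 without dim SHAM replicate 1 and -0.73 without dim SHAM replicate 2. The macrophage list also moved with that array, with means of 7.21 and 6.83 in dim PNX, against 8.01 and 6.46 in dim SHAM. The part of macrophage transcripts in these lists was not tested.

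**Figure D3:**
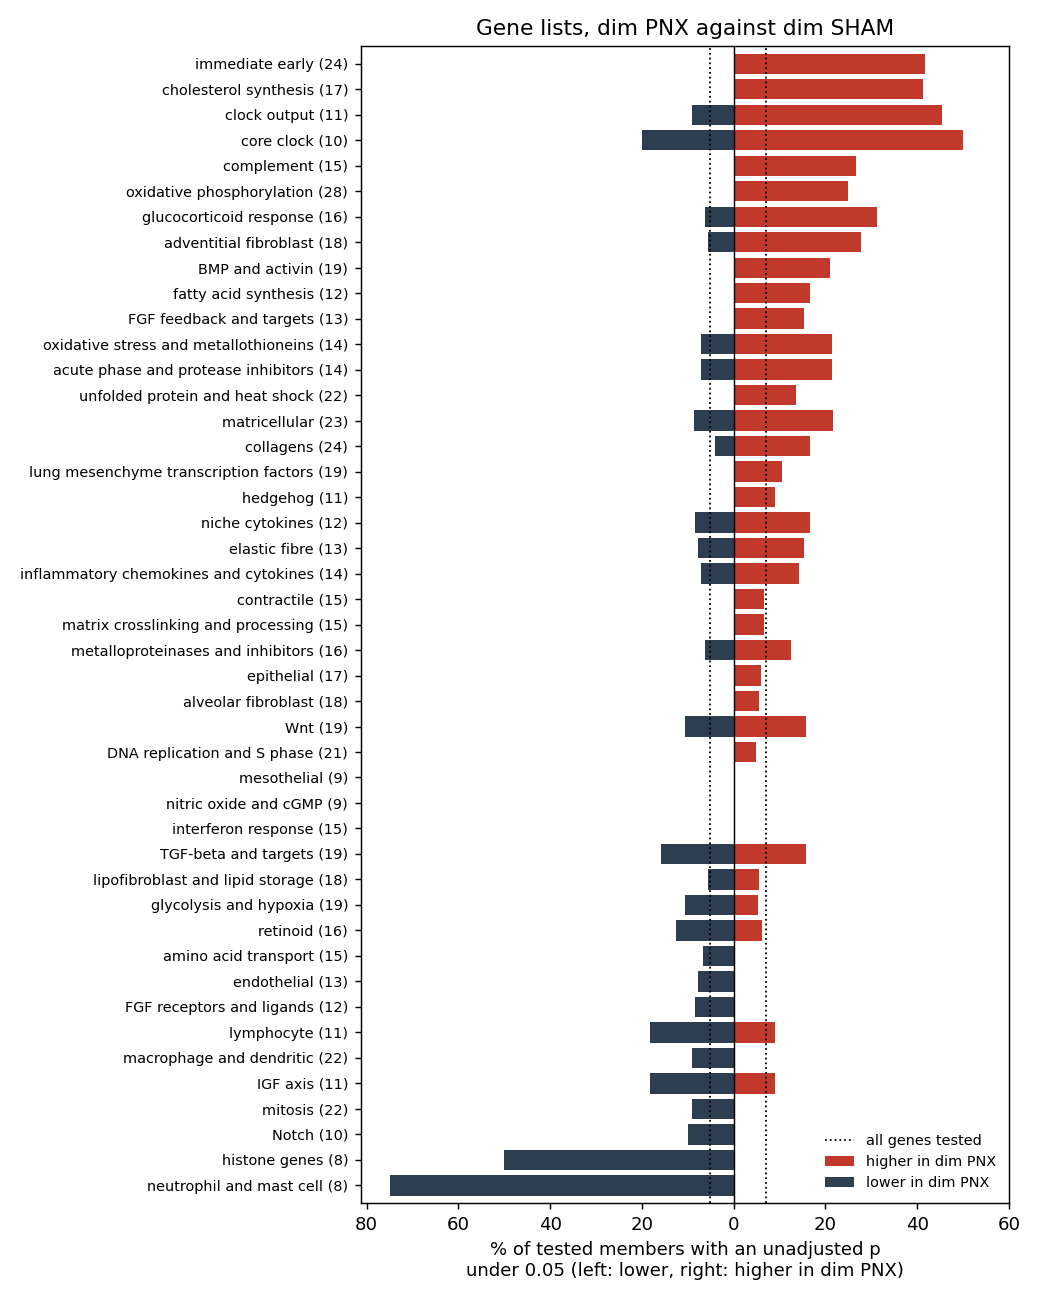
Share of the tested members of each gene list (percent, x axis; number tested in brackets) with an unadjusted p below 0.05 in dim PNX against dim SHAM, higher to the right in red and lower to the left in dark blue; dotted lines mark the shares of all genes tested, 7.04% and 5.11%. Immediate early, cholesterol and clock genes extend far right, and neutrophil and mast cell genes (6 of 8) and histone genes (4 of 8) extend far left. The neutrophil and mast cell bar includes Mpzl2, which was added to that list after earlier results of these data. Without Mpzl2 the count is 5 of 7.

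Of 18 alveolar fibroblast markers 1 was higher and 0 lower, and their mean signal was 10.65 and 10.77 in dim PNX, against 10.63 and 10.74 in dim SHAM. Slc7a10, an amino acid transporter, was at 10.43 and 10.42, against 10.64 and 10.47 (-0.13). Adventitial markers had means of 7.27 and 7.27 in dim PNX, against 7.08 and 6.93 in dim SHAM, with 5 of 18 higher and 1 lower. The higher ones included Entpd2, an ectonucleotidase, at 4.98 and 4.84 against 4.09 and 3.82 (0.95 ± 0.15, limma adjusted p = 0.086), all 4 under the filter's value, and Cd34, a surface sialomucin, at 9.02 and 9.06 against 8.65 and 8.45 (0.48). The lower one was Igfbp6.

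Among the lists of other cell types, those of granulocytes and of glia and neurons did not overlap between the groups, and the others did. The glia and neuron list, of 2 genes only, had means of 5.25 and 4.99 in dim PNX, against 4.93 and 4.83 in dim SHAM, near or under the filter's value. Epithelial genes had means of 8.15 and 6.90 in dim PNX, against 7.74 and 6.88 in dim SHAM, endothelial genes 6.60 and 5.89 against 6.14 and 6.45, and lymphocyte genes 5.89 and 5.36 against 6.15 and 5.60. At an unadjusted p below 0.05 there was 1 of 17 epithelial genes higher, 1 of 13 endothelial genes lower, and in lymphocyte genes 1 of 11 higher and 2 lower. Among 22 macrophage and dendritic genes 2 were lower, with Mertk, a receptor for dying cells, at -0.78 and the adaptor Tyrobp at -0.94. Without dim SHAM replicate 1, 6 of them were higher and 1 lower, and without dim SHAM replicate 2, 10 were lower. The mesothelial list had no gene at that level among 9, with means of 5.86 and 4.29 in dim PNX, against 5.20 and 4.91 in dim SHAM.

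**Figure D4:**
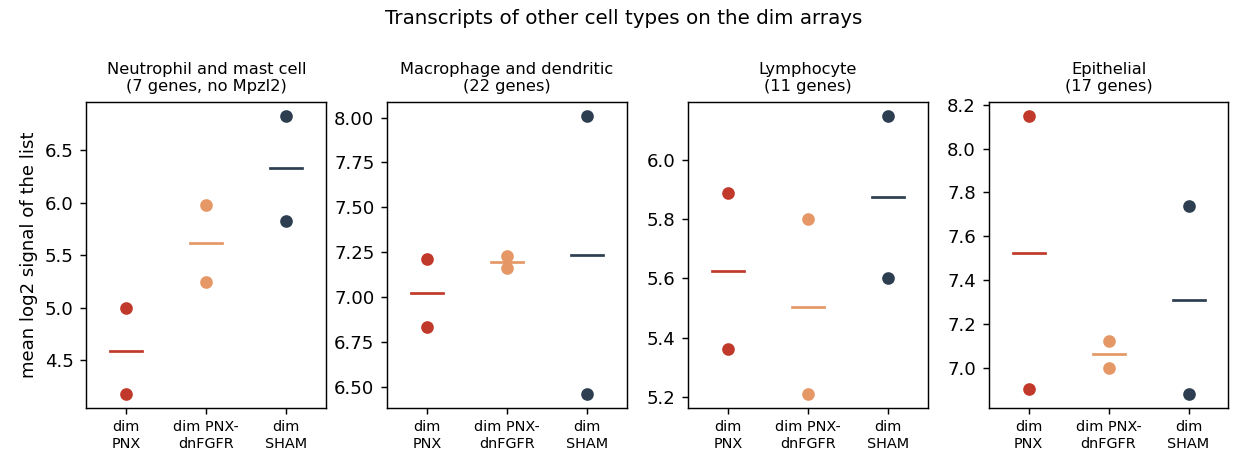
Mean log2 signal (y axis, own scale per panel) of 4 marker lists on the dim PNX, dim PNX-dnFGFR and dim SHAM arrays, points for arrays and bars for group means. The neutrophil and mast cell list without Mpzl2 is at 5.00 and 4.18 in dim PNX, below 5.83 and 6.83 in dim SHAM, while dim PNX and dim SHAM overlap in the other panels.

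Whether dim cells answered pneumonectomy differently from bright cells was asked of the difference of the 2 effects. Limma called 0 genes there at an adjusted p below 0.05, and 495 (4.47%) had an unadjusted p below 0.05. Saa3 differed by 5.54 after pneumonectomy in dim cells and by -0.01 in bright cells (difference of effects 5.55 ± 1.37, limma adjusted p = 0.89). Serpina3n differed by 3.33 in dim and 1.24 in bright cells (2.09 ± 0.29, limma adjusted p = 0.17). Its bright arrays were at 11.45 and 11.71 after pneumonectomy and at 10.36 and 10.32 after sham surgery, so dim SHAM was the lowest of the 4 groups. Mpzl2 differed by -4.67 in dim and -0.51 in bright cells (-4.16, limma adjusted p = 0.17). Cthrc1 had the larger difference in bright cells, 0.41 in dim and 2.71 in bright cells (-2.30, limma adjusted p = 0.17). Entpd2 was at 0.95 in dim cells, where all 4 arrays lay under the filter's value, and at -0.65 in bright cells (1.60, limma adjusted p = 0.17).

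Per3, Arntl and Ciart had the same sign in both subsets. Per3 differed by 1.74 in dim and 1.12 in bright cells (difference of effects 0.62 ± 0.30, limma adjusted p = 1). Arntl differed by -2.01 in dim and -1.32 in bright cells (-0.69 ± 0.44, limma adjusted p = 1). Ciart differed by 1.76 in dim and 0.47 in bright cells (1.29 ± 0.31, limma adjusted p = 0.89), and Nfil3 by -1.06 and -0.04 (-1.02 ± 0.29, limma adjusted p = 1). None of these differences of effects passed the threshold. The mitosis list had a median of -0.36 in dim and 0.58 in bright cells. At an unadjusted p below 0.05, 8 of its 22 genes had a lower effect in dim cells, where 2.35% of all genes did. Its mean signal was 4.95 and 4.83 in dim PNX and 5.71 and 4.82 in dim SHAM, mostly under the filter's value. In bright PNX it was 6.18 and 6.05, and in bright SHAM 5.65 and 5.44. The dim median of the mitosis list was 0.05 without dim SHAM replicate 1 and -0.79 without dim SHAM replicate 2. The DNA replication list had a median of -0.03 in dim and 0.63 in bright cells. At an unadjusted p below 0.05, 6 of its 21 genes had a lower effect in dim than in bright cells. The dim median of that list was 0.31 without dim SHAM replicate 1 and -0.28 without dim SHAM replicate 2. Of all genes tested, 2014 were without overlap in both subsets, of which 1644 had the same direction and 370 the opposite.

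**Figure D5:**
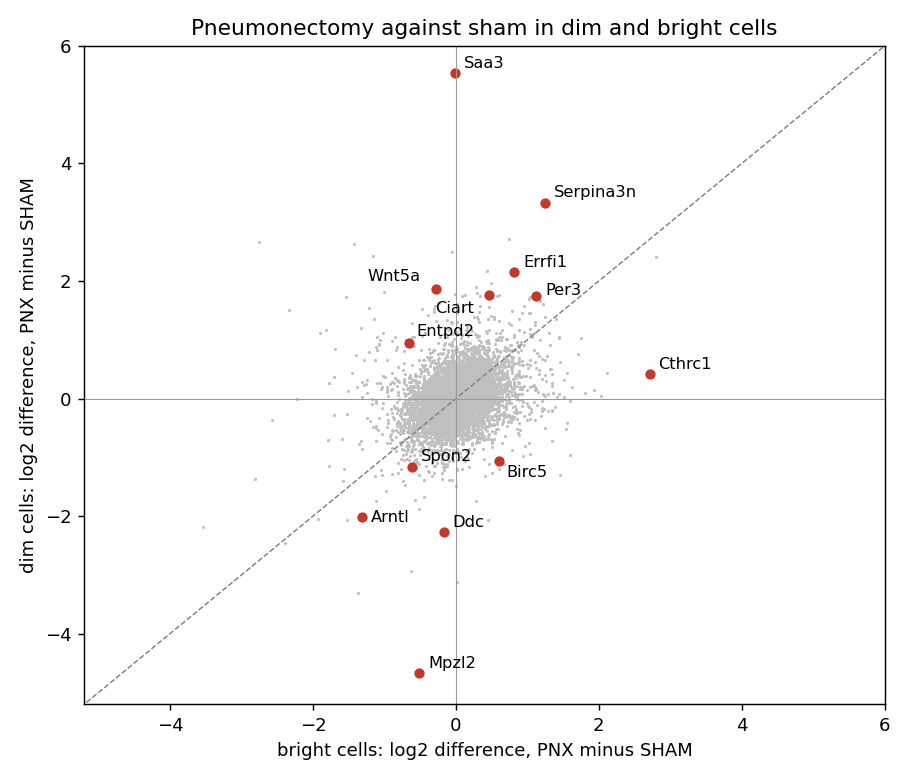
Log2 difference PNX minus SHAM in dim cells (y axis) against that in bright cells (x axis), 1 grey point per tested gene and red points for the labelled genes; the dashed line marks equal differences. Saa3 (5.54 in dim, -0.01 in bright) and Mpzl2 (-4.67 and -0.51) lie along the vertical axis and Cthrc1 (0.41 and 2.71) along the horizontal axis.

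The dim PNX-dnFGFR arrays give a further set of values after the same operation. Their differences from dim PNX and from dim SHAM share arrays with the comparison above, so they are given side by side only. Serpina3n was at 11.61 and 11.23 on the dim PNX-dnFGFR arrays and Saa3 at 11.14 and 9.55, inside or near the range of dim PNX. Mpzl2 was at 2.63 and 2.50, Igfbp3 at 8.06 and 8.91 and Igfbp6 at 7.46 and 8.20, also near dim PNX. Spon2 was at 8.71 and 8.85, above both dim PNX arrays (7.32 and 7.44) and above both dim SHAM arrays (8.40 and 8.68). Per3 was at 7.80 and 7.69, Ciart at 5.78 and 5.57, Arntl at 6.11 and 6.57 and Nr1d2 at 8.72 and 8.52, each between dim PNX and dim SHAM. Other clock genes were not between: Npas2 at 7.50 and 7.05, Per1 at 7.57 and 8.51, Per2, Tef, Nfil3 and Wee1 overlapped dim SHAM, Hlf, Bhlhe40 and Cry2 overlapped dim PNX, and Dbp, Clock and Rora overlapped both. Errfi1 was at 8.86 and 9.68, which overlaps dim SHAM at 9.26 and 8.44, and Id4 at 6.62 and 6.37 lay just above dim SHAM at 6.14 and 6.22. Limma called 0 genes between dim PNX-dnFGFR and dim PNX, with 863 (7.79%) at an unadjusted p below 0.05.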

How the data were processed

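The deposited values are log2 signals that the authors made with RMA per the submitters' processing notes. No source used here gives RMA's version or options. They were used unchanged. Array medians were 5.06 to 5.13, with 0 missing values. Of 45141 probe sets, 104 controls were dropped; 28898 had 1 gene in the platform's annotation, 551 several and 15588 none. Each of 17097 genes was represented by its brightest probe set (mean of the 12 arrays), and genes above log2 5.101 (the median value) on at least 2 arrays were tested. Limma 3.58.1 (R 4.3.3) fitted 1 mean per group to all 12 arrays in 6 groups, since groups of 2 need a shared estimate of spread (median residual SD 0.199). Its moderated p-values were adjusted by Benjamini and Hochberg over 11073 genes, with a threshold of 0.05. Unadjusted p-values served only for counts. The fit was checked on simulated data.

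The comparison, the 50 gene lists, the motifs and the rule for named genes were chosen with earlier results of these data known. The rule takes the 15 largest changes in each direction past the threshold (filled up at an unadjusted p under 0.01 without overlap), the members of each list with the smallest p (at most 4), the 2 highest members of each list of another cell type, all core clock genes, 14 fixed genes such as Pdgfra and Acta2, and the 5 largest differences from bright cells in each direction at an unadjusted p under 0.01. Some genes it takes are left unnamed, and any gene named after its value was seen is said to be so. Alternatives were other filters, normalizations, probe set choices, variance priors, sets of arrays, replicate blocks and the omission of single arrays. List counts without single arrays or without Mpzl2, the count of calls with low values set to the filter, and a fit of all probe sets were added after the data were seen. Symbols came from the RefSeq gene table by Entrez number for 28689 probe sets.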

Additional observations from a re-analysis of the deposited data

Results flagged for a closer look

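For 11 genes named above or here, both dim PNX arrays lay on one side of both dim SHAM arrays while both bright PNX arrays lay on the other side of both bright SHAM arrays. The difference of effects (dim minus bright, log2) was 1.28 for Id3, 1.60 for Entpd2, 2.15 for Wnt5a, 1.17 for Igfbp4 and 0.66 for Cd34. It was -1.67 for the mitosis gene Birc5, -0.83 for Nusap1, -1.92 for the kinase Aurkb -0.43 for Igf1, -1.07 for Il1r2 and -1.55 for Mpo. Wnt5a was at 6.01 and 6.26 in dim PNX against 3.81 and 4.73 in dim SHAM, and at 8.25 and 8.22 in bright PNX against 8.54 and 8.49 in bright SHAM. Limma's adjusted p for the difference of effects was 0.17 for Entpd2, 0.57 for Birc5, 0.62 for Id3, 0.78 for Wnt5a, 0.89 for Igfbp4 and Il1r2, and 1 for Cd34, Nusap1, Aurkb, Igf1 and Mpo, so no difference passed the threshold. The dim PNX and dim SHAM arrays of Entpd2, Nusap1, Il1r2 and Mpo all lay under the filter's value. Among all genes tested, 370 were of this kind. No test of single outlying arrays applies to groups of 2.

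Probe sets that the annotation ties to no gene or to several were outside the comparison of genes. In a fit of all 25839 probe sets above the filter, 9 of 7847 such probe sets were called in dim PNX against dim SHAM at a limma adjusted p below 0.05, and 4 of the 9 were higher. They are not named here.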

How the results depend on the processing

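The 5 calls became 2 without a filter and 2 after a further quantile normalization (Serpina3n and Mpzl2 in both). They became 13 with a variance trend in limma's prior and 1 with only the dim arrays fitted. With only the 4 arrays compared there were 0, and 1221 genes had an unadjusted p below 0.05. With values under the filter set to it there were 14 (all 5 kept, Ddc among the new ones), a count added after the data were seen. That setting makes low values equal and shrinks their spread, so its count cannot be set against the others. Without 1 array the count was 1 to 5 (3 without dim PNX replicate 1, 1 without dim PNX replicate 2, 3 without dim SHAM replicate 1), of which 2, 1, 3 and, without dim SHAM replicate 2, 2 of the 5 were among the 5 calls above, the remaining array of that group being taken to vary like the other groups. A stricter filter gave 5 (3 of them shared), centring 6, mean probe sets 4 and a robust prior 5. Per3 differed by 1.09 (limma adjusted p = 0.15) as the mean of its probe sets. For the difference between dim and bright effects, the 0 calls became 1 with mean probe sets (Mpzl2) and 0 to 1 without 1 array (Scgb3a1 without bright SHAM replicate 1, Mpzl2 without dim SHAM replicate 1). Some same-numbered arrays deviated together and others did not (r of deviations -0.19 to 0.35 over 15 pairs of groups, 0.17 between dim PNX and dim SHAM), so the numbers were not taken as pairs; a fixed replicate block called 7 genes, adding Arntl (limma adjusted p = 0.017) and Saa3 (0.028), and a random one 5. Leaving out 1 array gave list medians of -0.73 to -0.06 (histones), -1.03 to 0.51 (macrophages), -2.54 to -1.27 (neutrophils and mast cells; -2.33 to -0.76 without Mpzl2) and -0.05 to 0.55 (erythrocytes and platelets). It turned the sign of Cry2 (-0.21 to 0.19), Col1a1 (-0.00 to 0.12), Plin2 (-0.17 to 0.03), Fgfr2 (-0.98 to 0.10), Mki67 (-1.88 to 0.44), Lyz2 (-0.78 to 0.46), Hba-a1 (-4.23 to 1.49), Fos (-0.20 to 0.65), Jun (-0.47 to 0.16), Id2 (-0.61 to 0.73, and -0.09 as a mean of probe sets) and Bcl2l1 (-0.02 to 0.54), none of which passed the threshold. The cause of these shifts was not tested. Centring moved the median of all genes by -0.043. Signals of Mpzl2, Cfi, Cthrc1, Birc5, Nusap1, Entpd2, Ddc, Saa3, Ccl11 and Ccl7, among others, were near background in at least 1 group. With 2 arrays a group precision is limited, and low values have no reliable fold change.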

Other observations

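The fit of all 25839 probe sets, added after the data were seen, called 26 of them, among them probe sets that do not stand for their gene because another had a higher mean. A weaker probe set of Bcl2l1, which encodes the survival protein Bcl-xL, averaged 7.09 in dim PNX and 5.12 in dim SHAM (1.98, limma adjusted p = 0.00032). It was above the filter's value on 6 of the 12 arrays, with a mean of 5.16. The probe set that stands for Bcl2l1 differed by 0.26, and its other probe sets by 0.06 and -0.04, so the gene's rise rests on the weaker probe set. Second probe sets of Nr4a3 and Id4 differed by 2.61 (limma adjusted p = 0.0052) and 1.76 (limma adjusted p = 0.034), on the same side as the probe sets reported above. A second probe set of Wars, the tryptophan tRNA synthetase, averaged 6.51 in dim PNX and 8.15 in dim SHAM (-1.65, limma adjusted p = 0.0031). The representative one differed by -0.62 and a further one by -0.16.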
